A study of Mus musculus with 56 samples.

Results

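Transcripts of the pyruvate dehydrogenase complex, its kinases and its phosphatases were followed in mouse liver. The 10 genes are Pdha1, Pdhb and Dlat, which encode subunits of the complex, Pdk1, Pdk2, Pdk3 and Pdk4, which encode the kinases, and Pdp1, Pdp2 and Pdpr, which encode the phosphatases and their regulatory subunit. They were chosen by name from the 23813 genes of the deposited expression table, and all 10 are listed and passed the filter on low values in every comparison. Pdk3 reached 0.1 RPKM, the value the filter asks of 4 libraries, in only 1 hypothyroid WT library, so in both comparisons with that group it was tested only through the other group, where it is higher.

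The RNA came from livers of 12 male mice in 3 groups of 4. All mice were fed propylthiouracil (PTU), a blocker of thyroid hormone synthesis, in a diet poor in iodine. Hypothyroid WT mice received PTU, and hyperthyroid WT mice received PTU and, on the last days, injections of triiodothyronine (T3). By the methods of the study, mice were randomized to injections of T3 or of vehicle. Hypothyroid L-NCOR1ΔID mice (L-NCORdeltaID in the labels) received PTU and carry a liver-specific form of the nuclear receptor co-repressor NCOR1 that lacks domains by which it contacts the thyroid hormone receptor. L-NCOR1ΔID mice that received T3 were not part of these libraries, and the line was kept on a mixed C57BL/6;129S background. Over all its mice, the study lists a lower mean age and a higher mean liver weight for hypothyroid L-NCOR1ΔID than for hypothyroid WT. The ages of these 12 mice, and the background of the WT mice among them, are not given in the sources used here. The list of regions with acetylated histone H3 in hypothyroid and hyperthyroid WT liver was used for position only, and the 44 other libraries of the series were not analysed here.

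The pyruvate dehydrogenase complex sits in the mitochondrial matrix and turns pyruvate into acetyl-CoA, which links glycolysis to the citric acid cycle and, in liver, to the synthesis of fatty acids. The kinases phosphorylate the alpha subunit of its first enzyme and switch the complex off, and the phosphatases remove the phosphate and switch it on again. Pdk4 in particular is known to rise in fasting, when liver spares pyruvate for glucose synthesis. All values are of transcripts, and the phosphorylation of the complex was not measured here.

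The libraries were hepatic by their markers. The summed expression of 5 hepatocyte genes (Alb, Apoa1, Ttr, Tat and Cps1) was 19352 to 49196 RPKM, the read number scaled to transcript length and library size, against 2.02 to 4.81 RPKM for 4 cholangiocyte genes. Ncor1, whose altered allele lacks only part of the coding sequence, was at 14.1 to 15.6 RPKM in hypothyroid WT and at 12.1 to 13.9 RPKM in L-NCOR1ΔID mice, so its total does not check the genotype. The hormone-responsive genes Thrsp, Dio1 and Me1 rose in hyperthyroid WT mice by 2.29, 6.20 and 2.52 on the log2 scale (limma, adjusted p = 0.000813, 0.00118 and 7.22e-05). Dio1 stood at 57.7 RPKM in hypothyroid WT replicate 3, against 0.719, 6.64 and 8.98 RPKM in the other hypothyroid WT mice. Acta1, a skeletal muscle gene, was at 9.95 RPKM in hypothyroid WT replicate 4 and at 3.46 RPKM in L-NCOR1ΔID replicate 1, and at most 0.352 RPKM elsewhere.

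Cell type markers moved with T3 too. All 6 Kupffer cell genes rose, their sum going from 36.9 to 52.6 RPKM in hypothyroid WT to 123 to 205 RPKM in hyperthyroid WT mice, and the hepatocyte sum went from 37552 to 49196 RPKM down to 19352 to 27887 RPKM. Of its 5 genes 2 fell, Alb and Ttr, and none rose at an adjusted p under 0.01 (limma), and most of the sum is Alb, with a mean of 31804 RPKM in hypothyroid and 14325 RPKM in hyperthyroid WT mice. Of 6 stellate cell and fibroblast genes 3 rose, their sum going from 45.6 to 64.1 RPKM to 77.2 to 87.3 RPKM, and of 5 endothelial genes 2 rose. Lymphocyte and adipocyte genes summed to at most 3.57 and 1.33 RPKM in any library, and 3 erythroid genes to 112 to 214 RPKM. Of these 3, Hba-a1 and Hbb-b1 rose with T3 and Alas2 fell, from a mean of 83.5 to 11.4 RPKM, and Alas2 also fell in L-NCOR1ΔID mice, to 39.2 RPKM (limma, adjusted p = 0.00422). In L-NCOR1ΔID mice the Kupffer cell sum was 43.4 to 119 RPKM and the hepatocyte sum 31422 to 35593 RPKM. In whole liver, fewer cells of a type and less RNA per cell cannot be told apart, and the part of cell composition in the results below was not tested.

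The deposited acetylated regions show where acetylated DNA lies near these genes, and they do not link a region to a gene. Each of the 10 start sites lay inside an acetylated region, as did 86.6% of the start sites of 11809 protein-coding genes tested for T3. The region at Pdp2 (chr8:107113888-107127321, mm9) was 13434 bp long and ran from 5' of the start site past the end of the gene. The regions at the other members were 1081 to 8532 bp long, shortest at Pdk3 and longest at Pdhb, and the median of all 37200 regions was 2537 bp. Within 100 kb of the start site lay 15 regions at Dlat, 10 each at Pdhb and Pdpr, 8 each at Pdp1 and Pdp2, 7 each at Pdk2 and Pdk4, 4 at Pdk1, 2 at Pdk3 and 1 at Pdha1, against a median of 7 for the same protein-coding genes.

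The thyroid hormone receptor binds, with its partner RXR, to direct repeats of AGGTCA with 4 bases between the copies (DR4). Both strands of the regions were searched for such a repeat, and a match was scored by how many of its 12 bases outside the spacer were the same. No region within 100 kb of a member held a full match. All matches of 11 of 12 within 100 kb are printed. The 4 matches of 10 of 12 in the region at the Pdp2 start site are added because Pdp2 moved most of the members with T3. Single matches of 10 of 12 at the start sites of Pdk1, Pdk4, Pdha1 and Pdhb are not printed, although these genes moved with T3 too. Capitals mark the AGGTCA-like copies, coordinates span the repeat on mm9, and positions after the gene name count from its start site.
Pdp1, 87734 bp downstream, chr4:11805858-11805873, plus strand: agctcccAGTTCAggaaAGGTCAcaaccag
Pdk1, 6510 bp upstream, chr2:71704764-71704779, plus strand: tagtttcAGGTCAgccaAGGTTAactagaa
Pdhb, 89572 bp upstream, chr14:9095071-9095086, plus strand: gcttcctAGGTGActctAGGTCAtgctgag
Pdp2, 2317 bp downstream, chr8:107117678-107117693, minus strand: actcgccAGCTCGgagcAGGTCActgacct
Pdp2, 2886 bp downstream, chr8:107118247-107118262, plus strand: atggcccACGTCAatggAGTTCAcctgcat
Pdp2, 3294 bp downstream, chr8:107118655-107118670, minus strand: gtcccacAGGCCAtctgAGGCCAgcaccag
Pdp2, 9919 bp downstream, chr8:107125280-107125295, minus strand: tatgcagAGAGCAgaaaAGGTCAgaggcca

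By the GENCODE annotation of the same build, the first 3 Pdp2 matches fell in its coding exons, and the match 9919 bp downstream, like those of Pdp1, Pdk1 and Pdhb, fell between protein-coding genes. The Pdk1 match sat in a region of 2245 bp that ended 4690 bp from the start site. Matches of this quality are common. The 72 regions within 100 kb of a member held 3 matches of 11, and 4.48% of all acetylated regions held a match of 11 or 12. A match of at least 10 was found in 33.1% of all acetylated regions. Of the 555 regions within 10% of the length of the Pdp2 region, 15% held as many matches of at least 10. The regions at the start sites of Pdk1, Pdk4, Pdha1 and Pdhb held 1 match of 10 each, and those of the other 5 members had best matches of 8 or 9. A match describes letters only, and whether the receptor binds there was not analysed here.

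**Figure D1:**
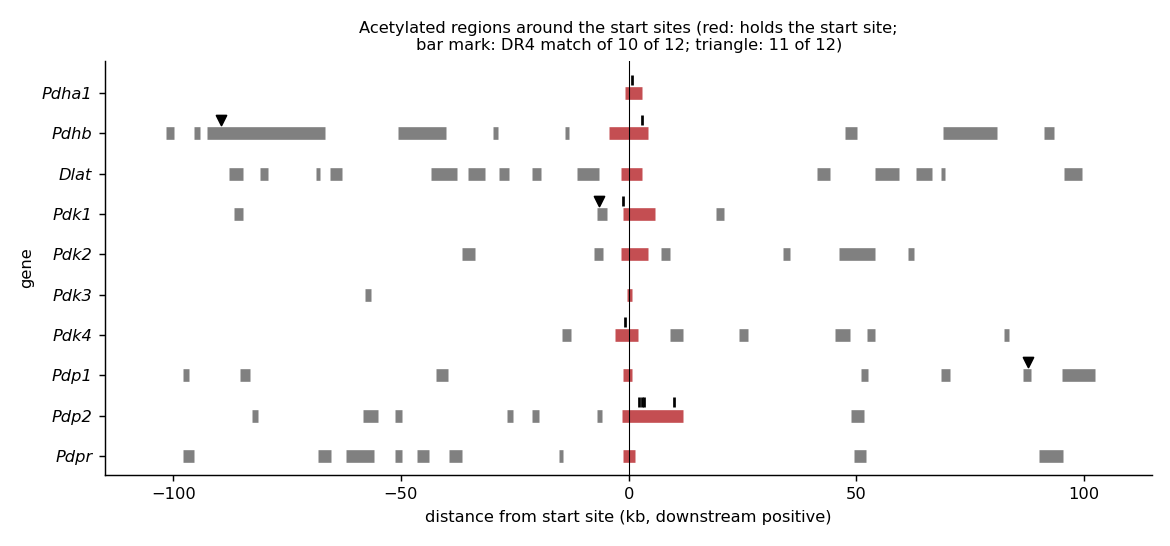
Acetylated regions within 100 kb of the start site of each gene, by distance from the start site in kb (x axis, downstream positive) and gene (y axis), with red bars for regions that hold the start site and grey bars for the others. The Pdp2 start site lies near one end of the 13434 bp region, the bar marks show DR4 matches of 10 of 12 in start site regions, and the 3 triangles show matches of 11 of 12.

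RefSeq promoter windows on GRCm38.p6, 250 bases before to 50 bases after a start site, were matched for 9 of the 10 genes, 11 windows in all. Pdp1 had no window. None of the 11 windows held AGGTCA on either strand, which 16.3% of 32851 windows did. CCAAT, the box bound by NF-Y, was searched on both strands after the windows had been seen, and 5 of the 11 windows held it, against 37.4% of all windows. The window of Pdhb and 1 of the 2 windows of Pdk2, the one printed, held it 3 times (3.37% of all windows held at least as many), and that of Pdp2 held it 2 times (11.7% held at least as many). The windows of Pdk1, which fell with T3, and of Pdha1 and Dlat, which rose, held none. The windows that held it 2 or 3 times are printed, CCAAT or its reverse complement in capitals.
Pdp2, plus strand, chr8:104591222-104591521: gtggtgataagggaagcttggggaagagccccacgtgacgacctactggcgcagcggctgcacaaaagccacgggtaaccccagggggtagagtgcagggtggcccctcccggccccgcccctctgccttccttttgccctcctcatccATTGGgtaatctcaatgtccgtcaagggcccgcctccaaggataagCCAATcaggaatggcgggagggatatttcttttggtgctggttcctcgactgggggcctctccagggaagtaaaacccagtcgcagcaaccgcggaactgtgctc
Pdhb, minus strand, chr14:8172943-8173242: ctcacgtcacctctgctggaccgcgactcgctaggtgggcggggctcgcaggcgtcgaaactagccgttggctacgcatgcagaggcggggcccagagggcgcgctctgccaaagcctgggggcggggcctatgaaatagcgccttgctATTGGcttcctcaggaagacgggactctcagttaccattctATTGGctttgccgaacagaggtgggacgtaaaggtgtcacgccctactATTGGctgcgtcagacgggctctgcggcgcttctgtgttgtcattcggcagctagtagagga
Pdk2, minus strand, chr11:95041322-95041621: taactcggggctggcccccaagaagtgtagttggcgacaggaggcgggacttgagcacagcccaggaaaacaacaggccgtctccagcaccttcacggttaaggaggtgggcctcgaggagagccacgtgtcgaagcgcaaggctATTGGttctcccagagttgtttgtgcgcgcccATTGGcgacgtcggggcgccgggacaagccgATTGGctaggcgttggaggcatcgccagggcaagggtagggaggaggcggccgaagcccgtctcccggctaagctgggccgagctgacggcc

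The first comparison asks how T3 changes the transcripts of the complex and its regulators in WT liver. By the stricter rule, a log2 fold change of more than 1 in either direction together with an adjusted p below 0.01, 5 of the 10 genes rose (Pdp1, Pdp2, Pdk3, Pdk4 and Pdhb) and 1 fell (Pdk1), while 8.28% of 13941 genes tested rose and 3.47% fell by this rule. Pdk3, counted among the 5, had passed the filter only through the hyperthyroid mice. At an adjusted p under 0.01 with no limit on size, 7 rose and 2 fell, with backgrounds of 24.5% and 7.71%, and Pdpr did not pass. Hyperthyroid and hypothyroid WT mice did not overlap for 9 of the 10 genes, 7 higher and 2 lower, where 35.8% of all genes were higher and 10.8% lower without overlap. The median log2 fold change was 0.86 over the 10 genes and 0.23 over all genes tested, so RPKM in general shifted upwards. RPKM are relative to the library total, and with libraries scaled by the median of gene ratios these medians were 0.66 and 0.009. Values were tested with limma on log2(RPKM + 0.1) with Benjamini-Hochberg adjustment over all genes tested, a scale that understates the change of low genes.

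**Figure D2:**
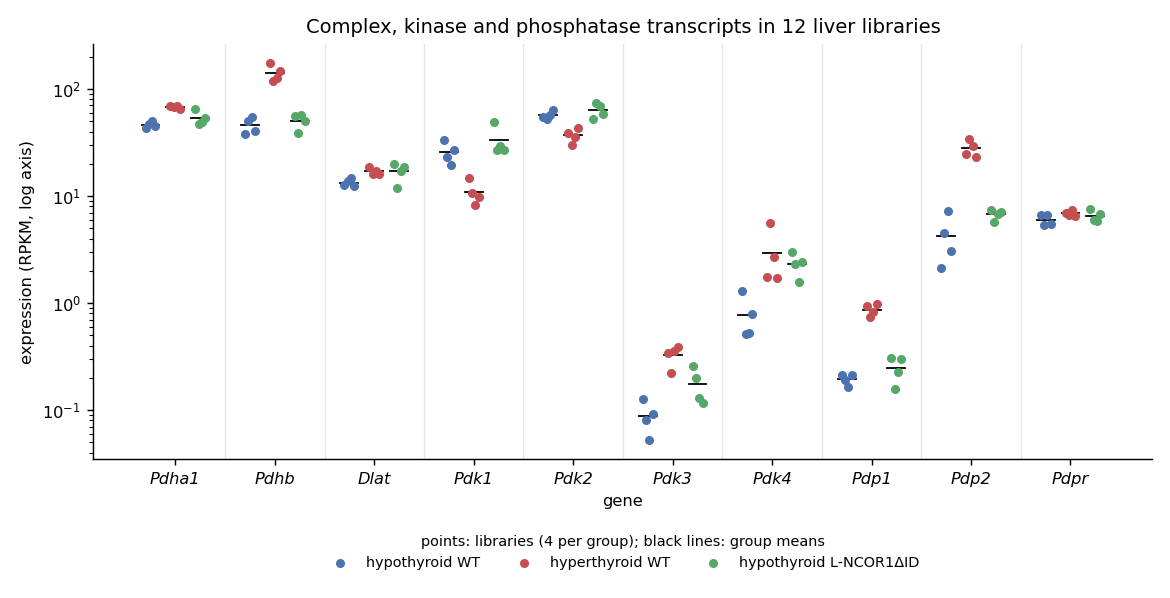
Expression in RPKM on a log axis (y) of the 10 genes (x) in the 12 libraries, points being libraries and black lines group means, coloured by group. Hyperthyroid WT points lie above both hypothyroid groups for Pdhb, Pdp1, Pdp2 and, narrowly, Pdha1. They lie below both for Pdk1 and Pdk2, while the groups overlap for Pdpr.

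Pdp2 encodes the phosphatase catalytic subunit known from liver and fat tissue. It stood at 2.13, 4.49, 7.27 and 3.06 RPKM in the 4 hypothyroid WT mice and at 24.9, 34.2, 29.2 and 23.1 RPKM in the 4 hyperthyroid WT mice. The groups were far apart, and the hypothyroid mice also differed among themselves, with replicate 3, the mouse with the high Dio1, at the top. The mean went from 4.24 ± 2.24 to 27.8 ± 4.96 RPKM (SD, n = 4 each), a log2 fold change of 2.81 with a 95% interval of 2.09 to 3.54 (limma, adjusted p = 0.000166).

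Pdp1, the other catalytic subunit, which is known to be stimulated by calcium and is prominent in muscle, was far lower in liver. It stood at 0.213, 0.191, 0.163 and 0.211 RPKM in hypothyroid WT and at 0.936, 0.738, 0.825 and 0.974 RPKM in hyperthyroid WT mice. These levels rest on 4.70 to 7.99 and on 17.4 to 25.2 reads per kilobase, and every hyperthyroid mouse was above every hypothyroid one. The log2 fold change was 1.71 (SE 0.151, adjusted p = 4.40e-05 by limma), and the ratio of the mean RPKM was 4.46. The table lists 3 Pdp1 transcripts with nearly the same values, of which the first is given.

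Pdpr, the regulatory subunit of the phosphatase, was at 6.66, 5.38, 6.61 and 5.45 RPKM in hypothyroid WT and at 6.90, 6.66, 7.46 and 6.44 RPKM in hyperthyroid WT mice. The groups overlapped. The log2 difference was 0.19, with a 95% interval of -0.034 to 0.41 (limma, adjusted p = 0.139).

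Among the kinases, the 2 abundant ones fell and the 2 scarce ones rose. Pdk2, the main kinase of liver by these levels, was at 54.4, 51.9, 56.5 and 64 RPKM in hypothyroid WT and at 38.5, 30.1, 35.4 and 43.4 RPKM in hyperthyroid WT mice. It fell by 0.63 on the log2 scale (SE 0.115, adjusted p = 0.00202 by limma). Pdk1, known as a target of the hypoxia-inducible factor, was at 33.1, 23.2, 19.5 and 27.1 RPKM in hypothyroid WT and at 14.7, 10.7, 8.31 and 9.83 RPKM in hyperthyroid WT mice. It fell by 1.24 on the log2 scale (SE 0.198, adjusted p = 0.00104 by limma), with no overlap between the groups for either gene.

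Pdk4, the kinase best known for its rise in fasting, was at 1.29, 0.513, 0.527 and 0.795 RPKM in hypothyroid WT and at 1.74, 5.58, 2.67 and 1.72 RPKM in hyperthyroid WT mice. Hyperthyroid replicate 2 was the highest of all 12 libraries, and the lowest hyperthyroid mice lay close to hypothyroid replicate 1. The log2 fold change was 1.70 with a 95% interval of 0.80 to 2.59 (limma, adjusted p = 0.00674). The call was lost without hypothyroid WT replicate 2, 3 or 4 (adjusted p = 0.0203, 0.0191 and 0.0168 by limma) or without hyperthyroid WT replicate 3 (0.0181), and over all 17 alternatives the adjusted p was 0.00265 to 0.0267. Its log2 fold change after scaling by the median of gene ratios was 1.47 (adjusted p = 0.0183).

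Pdk3, a kinase known mainly from testis and brain, was near the lower limit of these libraries. It was at 0.128, 0.081, 0.052 and 0.092 RPKM in hypothyroid WT mice, which is 1.5 to 3.96 reads per kilobase, and at 0.339, 0.220, 0.353 and 0.385 RPKM in hyperthyroid WT mice, 5.46 to 9.95 reads per kilobase. Since 1 of the 4 hypothyroid values reached the filter's 0.1 RPKM, it was tested only because it was higher after T3. It rose by a log2 fold change of 1.17 (adjusted p = 0.00180 by limma) with no overlap, and its mean after T3, 0.324 RPKM, was below that of each other member in the same mice.

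Within the complex, the subunits moved unequally. Pdhb, the beta subunit of the first enzyme, was at 38.1, 50.5, 54.9 and 40.6 RPKM in hypothyroid WT and at 175, 119, 126 and 147 RPKM in hyperthyroid WT mice. Its mean went from 46.0 ± 7.97 to 141.7 ± 25.4 RPKM (SD, n = 4 each), a log2 fold change of 1.62 (limma, adjusted p = 6.27e-05). Pdha1, the alpha subunit, which pairs with the beta subunit in a tetramer and carries the phosphorylation sites, was at 42.9, 46.9, 49.8 and 45.4 RPKM in hypothyroid WT and at 69.8, 67.3, 69.6 and 64.9 RPKM in hyperthyroid WT mice. It rose by 0.55 on the log2 scale (SE 0.0656, adjusted p = 0.000208 by limma). The ratio of Pdhb to Pdha1 was 0.888 to 1.1 in the hypothyroid WT mice and 1.76 to 2.51 in the hyperthyroid ones, so these subunits were near parity in RPKM before T3 and not after it.

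Dlat, the acetyltransferase core of the complex, was at 12.6, 13.7, 14.7 and 12.5 RPKM in hypothyroid WT and at 18.7, 15.9, 17.2 and 16 RPKM in hyperthyroid WT mice. The groups did not overlap, but the difference was small, with a log2 fold change of 0.34 (SE 0.0821, adjusted p = 0.00766 by limma). Relative to the general shift it was 0.11. With libraries scaled by the median of gene ratios the log2 fold change was 0.11 (adjusted p = 0.316), and leaving out a library ended the call in every case other than hypothyroid WT replicate 3 (adjusted p 0.00748 to 0.0248 by limma). After that scaling Pdha1 was still higher by 0.31 (adjusted p range over 17 alternatives 0.000200 to 0.00424), and Pdk1 and Pdk2 lower by log2 differences of -1.47 and -0.87.

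The isoform balance describes how the regulators compare in a library, with no test. Summed Pdk1 to Pdk4 expression was 75.7 to 92.0 RPKM in hypothyroid WT and 46.6 to 55.3 RPKM in hyperthyroid WT mice. Summed Pdp1 and Pdp2 expression was 2.35 to 7.43 RPKM in the former and 24.1 to 35.0 RPKM in the latter. Kinase transcripts thus outnumbered phosphatase transcripts per length by 10.3 to 37.9 times in hypothyroid WT and by 1.33 to 2.30 times in hyperthyroid WT mice. Pdk2 made up 61.2 to 73.8% of kinase RPKM in the hypothyroid and 64.6 to 78.4% in the hyperthyroid WT mice, and Pdk1 made up 25.5 to 37.2% and 17.8 to 26.7%. Pdk4 was 0.678 to 1.45% of kinase RPKM before and 3.11 to 12% after T3, so even its highest library left it behind Pdk1. Pdp2 was 90.9 to 97.9% of catalytic phosphatase RPKM in every WT mouse of both groups.

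**Figure D3:**
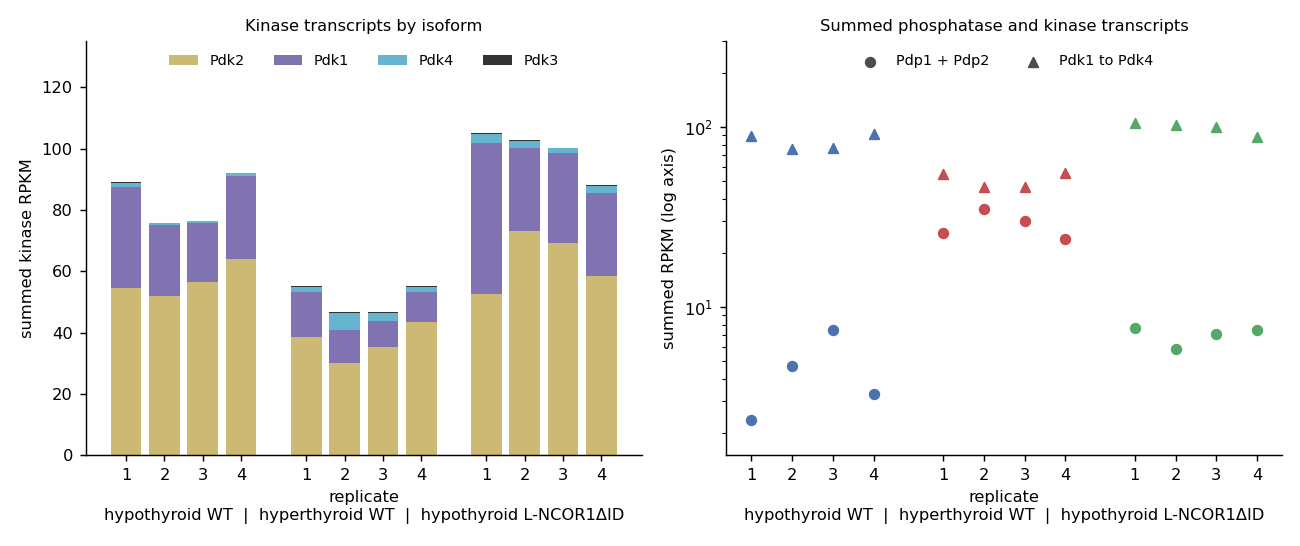
Left, summed RPKM of the kinases stacked by isoform in each library (x axis, replicates by group), and right, summed RPKM of the phosphatases (circles) and the kinases (triangles) on a log axis. In hyperthyroid WT libraries the kinase sum is 46.6 to 55.3 RPKM and the phosphatase sum 24.1 to 35.0 RPKM, the closest the circles and triangles come.

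The second comparison asks whether the altered co-repressor changes these transcripts without T3. No member passed an adjusted p under 0.01 in hypothyroid L-NCOR1ΔID against hypothyroid WT mice (limma), where 1.27% of 13790 genes tested passed. By limma at an unadjusted p under 0.05 there were 3 (Pdp2, Pdk3 and Pdk4), with 20.5% of all genes at that level. All 10 log2 differences were above 0, with a median of 0.27 against 0.03 over all genes tested, of which 7690 of 13790 were above 0. Without the 2 libraries that hold Acta1 the difference of Pdpr was -0.0046. The groups did not overlap for 1 gene, Pdk4, where 7.78% of all genes were higher without overlap.

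Pdk4 was at 2.98, 2.31, 1.57 and 2.41 RPKM in L-NCOR1ΔID mice, each above the highest hypothyroid WT value of 1.29 RPKM. The log2 difference was 1.51, with a 95% interval of 0.86 to 2.15 (limma, adjusted p = 0.0219), which misses the threshold of 0.01 and passes one of 0.05. Over 18 alternatives its adjusted p was 0.0101 to 0.111. Without hypothyroid WT replicate 1 it was 0.0101, the lowest of them.

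Pdp2 was at 7.36, 5.67, 6.83 and 7.11 RPKM in L-NCOR1ΔID mice. These lay close together, and above 3 of the 4 hypothyroid WT values, but below the 7.27 RPKM of hypothyroid WT replicate 3 in 3 mice. The log2 difference was 0.79, with a 95% interval of 0.080 to 1.51 (limma, adjusted p = 0.197). It was 0.52 without hypothyroid WT replicate 1 (adjusted p = 0.344) and 1.095 without hypothyroid WT replicate 3 (adjusted p = 0.0523). Pdk3, which passed the filter only through the L-NCOR1ΔID mice, at 0.259, 0.198, 0.129 and 0.116 RPKM, had a log2 difference of 0.53 (adjusted p = 0.240 by limma). The other 7 genes had log2 differences of 0.11 to 0.35, led by Pdk1 and Dlat, with adjusted p of 0.280 to 0.663 (limma).

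L-NCOR1ΔID replicate 1 was the highest of its group for 8 of the 10 genes. Its Pdk1 level of 49.2 RPKM stood apart from 27.1, 29.5 and 27.1 RPKM in the others, and its Pdha1 level was 64.8 RPKM against 47.3, 48.9 and 53.1 RPKM. This is also the library with Acta1 at 3.46 RPKM and the most Col3a1, 15.6 RPKM against 2.14 to 7.99 RPKM in the other L-NCOR1ΔID mice, and the part of this in the result was not tested. Without this library the log2 difference of Pdk1 was 0.14, and without both libraries that hold Acta1 the count of members called was again 0. Summed kinase expression was 88.1 to 105 RPKM in the L-NCOR1ΔID mice and summed phosphatase expression 5.82 to 7.67 RPKM, and the kinase to phosphatase ratio of 11.9 to 17.6 lay within the range of hypothyroid WT mice.

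The third comparison sets hyperthyroid WT against hypothyroid L-NCOR1ΔID mice. It equals the difference between the other comparisons, which share the hypothyroid WT mice, and so tests whether the differences seen with T3 and with the altered co-repressor are of unequal size. At an adjusted p under 0.01 (limma), Pdp1, Pdp2 and Pdhb were higher and Pdk1 and Pdk2 lower in hyperthyroid WT mice, 5 of 10 genes, where 15.5% of 14017 genes tested were higher and 5.7% lower. The groups did not overlap for 6 members, 4 higher and 2 lower, against 28.7% and 9.57% of all genes.

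For Pdp2, the 4 hyperthyroid WT mice at 23.1 to 34.2 RPKM were all above the 4 L-NCOR1ΔID mice at 5.67 to 7.36 RPKM, a log2 difference of 2.02 (limma, adjusted p = 2.27e-05). Pdp1 was at 0.309, 0.156, 0.228 and 0.3 RPKM in L-NCOR1ΔID mice, and hyperthyroid WT mice were higher by 1.49 on the log2 scale (adjusted p = 0.000642 by limma). Pdhb, at 56.3, 38.7, 57.3 and 50.3 RPKM in L-NCOR1ΔID mice, had a log2 difference of 1.48 (adjusted p = 0.000222 by limma). These 3 genes thus differed more with T3 than with the altered co-repressor.

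Pdk1 was lower in hyperthyroid WT mice by a log2 difference of -1.58 (limma, adjusted p = 0.000919). Pdk2 was at 52.5, 73.1, 69.1 and 58.5 RPKM in L-NCOR1ΔID mice, and hyperthyroid WT mice were lower by -0.78 (limma, adjusted p = 0.00281). The Pdk2 call was lost without hyperthyroid WT replicate 3 (adjusted p = 0.0103 by limma) or without L-NCOR1ΔID replicate 3 (0.0111).

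The remaining 5 genes did not pass. Pdk4 differed by 0.19 on the log2 scale, with a 95% interval of -0.62 to 0.997 (limma, adjusted p = 0.703). The 4 L-NCOR1ΔID mice lay within the range of the hyperthyroid WT mice apart from replicate 3; the interval holds differences in both directions, and a missed threshold does not show equal levels. Dlat had a log2 difference of 0.026 with a 95% interval of -0.32 to 0.37 (limma, adjusted p = 0.909). Pdpr and Pdk3 differed by 0.077 and 0.64 (limma, adjusted p = 0.589 and 0.0585). Pdha1 was higher by 0.35 with no overlap (limma, adjusted p = 0.0258), and passed without L-NCOR1ΔID replicate 1 (0.00474).

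**Figure D4:**
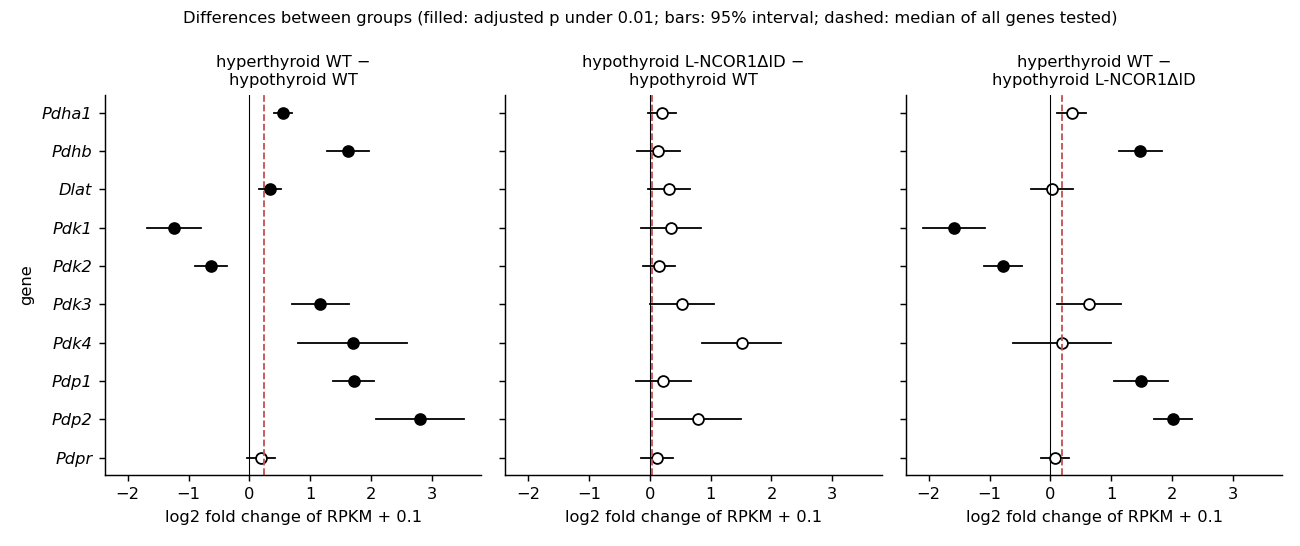
Log2 fold change of RPKM + 0.1 (x axis) for the 10 genes (y axis) in the 3 comparisons, with 95% intervals from limma, filled points for an adjusted p under 0.01, and the median of all genes tested as a dashed line (0.23, 0.03 and 0.19 from left to right). Filled points number 9, 0 and 5 from left to right, and Pdk4 lies well right of 0 in the first and middle panels and close to 0 in the last.

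Put in order of their means, the 3 groups fell into few patterns. For Pdp1, Pdp2 and Pdhb the order was hypothyroid WT, L-NCOR1ΔID and hyperthyroid WT, and the difference between the hypothyroid groups did not pass the test while the hyperthyroid mice stood above both. For Pdk1 and Pdk2 it was hyperthyroid WT, hypothyroid WT and L-NCOR1ΔID, with the hyperthyroid mice below both. Pdha1, Dlat, Pdk3, Pdk4 and Pdpr had the same order as Pdp1, and for these 5 genes neither step between neighbours passed the test.

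The genes whose pattern over the 12 libraries was most like that of Pdp2, among 10662 genes with a mean of at least 1 RPKM, were Tnk2, Sh3pxd2a and D330041H03Rik. The root mean square difference of their centred log2(RPKM + 0.1) from Pdp2 was 0.22, 0.23 and 0.26. Tnk2, a tyrosine kinase, had group means of 3.65, 20.5 and 4.88 RPKM in hypothyroid WT, hyperthyroid WT and L-NCOR1ΔID mice. For Pdk4 the nearest were Arntl, St5 and Gadd45g, at 0.30, 0.34 and 0.36. Arntl, a transcription factor of the circadian clock, had group means of 0.671, 3.00 and 2.69 RPKM, and Gadd45g, a stress-inducible gene, 6.82, 24.0 and 21.3 RPKM.

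The other genes that handle pyruvate, make the cofactors of the complex or belong to related complexes numbered 27, of which 26 were tested. Pdha2, the testis form of the alpha subunit, was at 0 in all 12 libraries and is named after its values were seen. With T3, 8 rose and 2 fell at an adjusted p under 0.01 (limma), with a median log2 fold change of 0.19 against 0.23 over all genes tested. After scaling by the median of gene ratios, 4 rose and 6 fell among them, and 1719 rose and 1941 fell among all genes tested in place of 3413 and 1075. The same scaling gave 5 higher and 2 lower among the 10 members in place of 7 and 2. In L-NCOR1ΔID mice none of the 26 passed (limma), and 5 had an unadjusted p under 0.05.

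Of the pyruvate carriers and fates, 3 of 11 rose and 1 fell, where 24.5% of all genes rose and 7.71% fell. Slc16a7, a monocarboxylate transporter of high affinity for pyruvate, was at 15.7, 10.9, 12.7 and 15.1 RPKM in hypothyroid WT and at 2.91, 3.00, 2.73 and 2.27 RPKM in hyperthyroid WT mice. It fell by 2.27 on the log2 scale (limma, adjusted p = 8.42e-06), the only gene of these lists past both the fold limit of 1 and the adjusted p. Slc16a1, another monocarboxylate transporter, and Pkm rose by 0.83 and 0.97 (limma, adjusted p = 0.00119 and 0.000678). Slc16a1 and Pkm are named after their values were seen. Mpc2, a subunit of the mitochondrial pyruvate carrier, was at 124, 110, 120 and 126 RPKM in hypothyroid WT and at 225, 212, 225 and 220 RPKM in hyperthyroid WT mice, a log2 fold change of 0.88 (limma, adjusted p = 2.67e-05). L-NCOR1ΔID mice had 103 to 113 RPKM of Mpc2 and 10.1 to 14.5 RPKM of Slc16a7, which overlapped the hypothyroid WT mice, and both genes passed the test between hyperthyroid WT and L-NCOR1ΔID mice (log2 differences 1.005 and -2.08).

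Of the other complex subunits, Dld, the dihydrolipoyl dehydrogenase shared with the related complexes, was at 55 to 58.0 RPKM in hypothyroid WT and at 68.9 to 75.8 RPKM in hyperthyroid WT mice, higher by 0.36 (limma, adjusted p = 0.00128), which the scaling reduced to 0.12 (adjusted p = 0.184). Of 6 cofactor genes 1 rose and none fell, and of 7 genes of the related complexes 3 rose and 1 fell, beside the same 24.5% and 7.71% of all genes. Ogdh and Dlst, subunits of the 2-oxoglutarate dehydrogenase complex, were higher by 0.57 and 0.45 (limma, adjusted p = 0.000283 and 0.000741). After the scaling Dlst was higher by 0.22 (adjusted p = 0.0483). Bckdk, the kinase of the branched-chain complex, rose by 0.70 (limma, adjusted p = 0.00224), from 2.79 to 3.57 RPKM in hypothyroid WT to 4.13 to 5.96 RPKM in hyperthyroid WT mice. Its phosphatase Ppm1k, named after its values were seen, fell by 0.76 (limma, adjusted p = 0.00233), from 19.1 to 26.7 RPKM to 11.6 to 16.7 RPKM. In L-NCOR1ΔID mice, which received no T3, Ppm1k was lower than in hypothyroid WT mice by 0.80 (limma, adjusted p = 0.0111), short of the threshold. Between hyperthyroid WT and L-NCOR1ΔID mice its log2 difference was 0.042 (limma, adjusted p = 0.821).

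**Figure D5:**
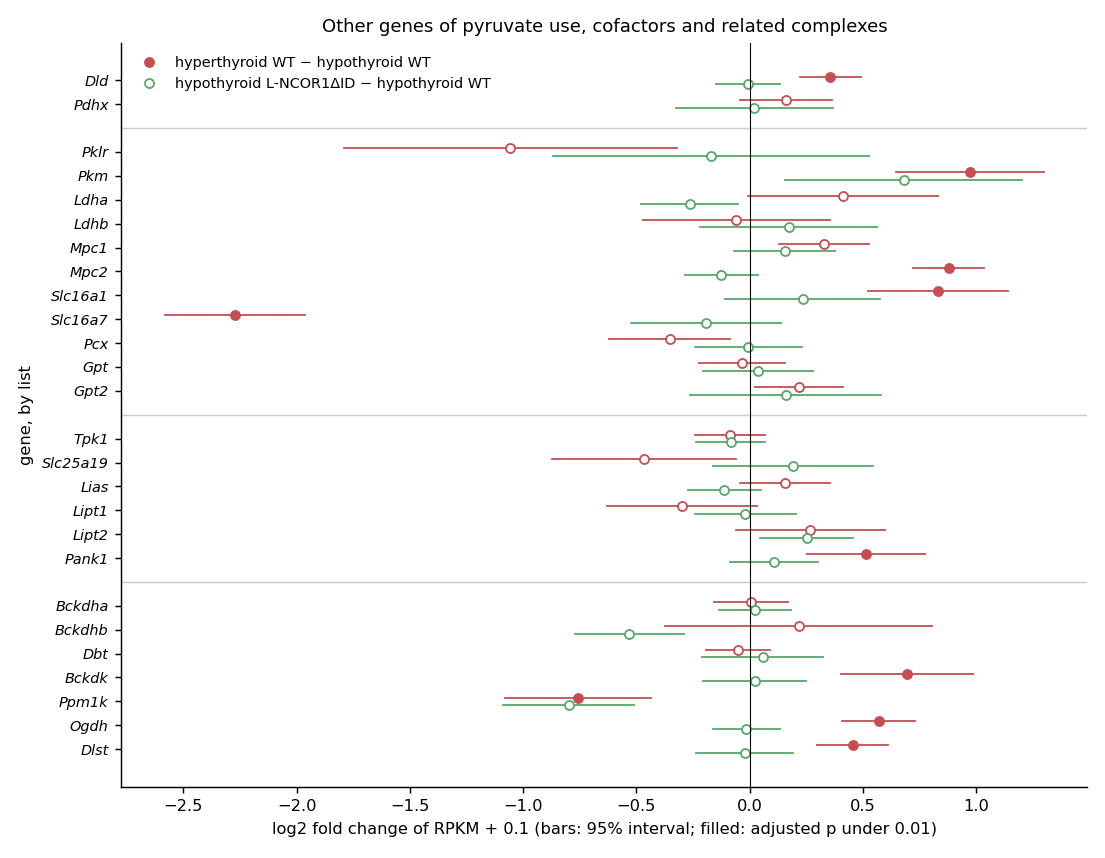
Log2 fold change of RPKM + 0.1 (x axis, 95% intervals from limma, filled for an adjusted p under 0.01) of the 26 tested genes of the pyruvate, cofactor and related complex lists (y axis), with T3 in red and in L-NCOR1ΔID mice in green. Slc16a7 stands alone at the left at -2.27 with T3, and no green point is filled.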

How the data were processed

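Liver RNA-seq of 12 mice was analysed. STAR alignment to mm9 and HOMER quantification of RefSeq transcripts were done by the authors, and the deposited values are RPKM. Versions are not given in the sources used here, and the DESeq2 results of the study were not used. The deposited acetylated regions are chromosome, start and end, merged over both marks and WT conditions, with no value per sample. The table has 31370 transcripts, 1 without a gene name, which was left out, and 0 unused columns. The first listed transcript stood for each gene. Depth was estimated from short microRNA hairpin genes, whose lowest RPKM values are whole multiples of 1 read (100% within 0.1 read). The estimates were about 28800000 to 37800000, 21100000 to 25800000 and 37700000 to 42300000 reads per library in hypothyroid WT, hyperthyroid WT and L-NCOR1ΔID mice. At these depths 0.1 RPKM is 2.11 to 4.23 reads per kilobase, and all reads per kilobase given here rest on them. RPKM are not counts, and no count test was run.

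Differences were tested with limma 3.58.1 (R 4.3.3) with a variance trend on log2(RPKM + 0.1), only the 2 groups compared in each fit, on genes that reached 0.1 RPKM in 4 or more of these libraries, with two-sided moderated tests and Benjamini-Hochberg adjustment over all genes tested. Thresholds were the study's, adjusted p below 0.01 and, for T3, also a log2 fold change beyond 1 in either direction. On simulated data with 200 changed genes, 88.0%, 91.5% and 89.0% were recovered in the T3, L-NCOR1ΔID and last comparison. The changed genes all had a mean of at least 1 RPKM and log2 changes well beyond 1 in either direction. Recovery of changes close to 1 or smaller, or of scarce genes such as Pdp1 and Pdk3, was not simulated. The 4 mice of a group are labelled as separate replicates. The p-values set the difference between groups against the spread within them, with variances moderated towards a trend over all genes tested.

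The members and gene lists were chosen with earlier results of these data known. Text names all 10 members, list genes that pass a comparison's threshold (at most 6 a list), Ncor1, Thrsp, Dio1 and Me1, the 3 genes nearest in pattern to Pdp2 and to Pdk4, and marker genes. Alternatives were a pseudocount of 1 or 0.01, no filter, a filter at a mean of 1 RPKM, a joint fit of the 12 libraries, a replicate block, no trend, an adjusted p below 0.05, median-of-ratios scaling, the transcript with the highest mean and each library left out. Leaving out both libraries with skeletal muscle transcripts was chosen after seeing the data. Sequences were read from mm9 with GENCODE M1, and promoters are RefSeq windows on GRCm38.p6. Python 3.11.15 with numpy 2.4.6, pandas 2.3.3 and matplotlib 3.10.9 was used for the other steps.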

Additional observations from a re-analysis of the deposited data

Results flagged for a closer look

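Of 30 sets of 4 libraries (10 genes in 3 groups), 1 held a library far from the others by Dixon's test at its 95% critical value, and chance gives about 1 in 20. It was Pdk1 in hypothyroid L-NCOR1ΔID replicate 1 at 49.2 RPKM, a gap of 0.891 of the range of its group.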

How the results depend on the processing

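With T3, 6 members were called and 9 at an adjusted p under 0.01 of any size. A pseudocount of 1 left 3 of the 6, since the log2 fold changes of Pdp1 and Pdk3 then fell under 1 and Pdk4 missed the adjusted p. Leaving out a library gave 5 to 6 and 7 to 8. In L-NCOR1ΔID mice the count of 0 became 1 (Pdk4) at an adjusted p under 0.05 and was 0 to 0 without a library. Between hyperthyroid WT and L-NCOR1ΔID mice the count of 5 became 4 to 6. The other alternatives moved no count by over 1.5 times. A mean of at least 1 RPKM removed Pdp1 and Pdk3 from the tests.

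Replicate numbers did not pair the libraries, as the correlation of deviations was -0.12 to 0.17 for same-numbered and -0.22 to 0.21 for other libraries. With the replicate block the counts were 5, 7 (any size), 0 and 4, and the block ended calls of Pdk4 and Dlat with T3 and of Pdk2 in the third comparison.

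Of 514 values of single members under the alternatives, 482 kept direction and side of the threshold, 23 lost and 2 gained a call, and 7 changed sign, none of them past the threshold. These were Pdpr (-0.045 with T3 and -0.12 in the third comparison after scaling, and -0.0046 in L-NCOR1ΔID mice without the libraries with muscle transcripts), Dlat in the third comparison (-0.17 after scaling, -0.022 without hyperthyroid WT replicate 1, and -0.14 to 0.11 over all libraries left out in turn) and Pdk4 there (-0.17 without hyperthyroid WT replicate 2, up to 0.38 without others). The causes were not tested. Depth limits Pdk3 and Pdp1, with as few as 1.5 and 4.70 reads per kilobase in a library.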
